A study of Mus musculus with 12 samples.

Results

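Translation factors are the proteins that bring the ribosome to an mRNA and move it along the message. The genes described here are the 66 protein-coding genes of the count table, of 50600 genes in all, whose symbol begins with Eif1 to Eif6 or with Eef1 or Eef2. The Y-linked gene Eif2s3y and pseudogenes were left out, and the rule itself uses the symbols and no measured value. The symbols also bring in regulators that carry the same prefix, such as the eIF2 kinases, the eIF4E-binding proteins and the methyltransferases of the elongation factors. The 66 genes were divided into 11 roles, and their RNA was measured in 12 libraries of 3 cell types from the mouse dentate gyrus, with 4 libraries per cell type.

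Initiation begins when eIF2 carries the initiator tRNA to the small ribosomal subunit, where eIF3, eIF1, eIF1A and eIF5 help to find the start codon. The eIF4 factors bind the cap of the mRNA and unwind its leader, and they are the step that mTORC1 controls through the eIF4E-binding proteins. eIF2 is recharged by eIF2B and is switched off by 4 kinases in the integrated stress response. Elongation then needs eEF1A, which delivers aminoacyl-tRNA, its exchange factor eEF1B, and eEF2, which moves the ribosome along. In the adult brain, the activation of resting neural stem cells is known to go with a rise in protein synthesis.

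The cells came from Nestin-GFP mice of 6 to 9 weeks, in which a reporter driven by Nestin sequences labels stem cells and progenitors, and no other genotype or treatment was part of the comparison. The sort kept live cells without the endothelial marker CD31, the leukocyte marker CD45 or the oligodendrocyte antigens O1 and O4. Among these, GFP without surface GLAST defined the progenitors, GLAST without GFP the astrocytes, and both together the stem cells. Each library was made from 50 sorted cells by SMARTer v4 preamplification and Nextera XT. The sort gates define the groups, and 50 cells are a small and possibly mixed sample of each. The study describes the libraries of a cell type as biological replicates and states that a single mouse brain suffices for each. The labels do not tie libraries to individual mice, so whether cell types share mice is not known. The tests treat the groups as independent, and the p-values below measure the spread between these libraries. In libraries made from many cells, fewer cells of a type and less RNA per cell cannot be told apart.

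Total counts per library ranged from 5357232 to 6253680 in astrocytes, from 9041498 to 12535028 in progenitors and from 5031166 to 10435711 in stem cells. Levels are given as CPM, counts per 1000000 counts on genes after TMM scaling, and 3 counts corresponded to 0.206 to 0.639 CPM. The libraries were checked against marker lists of the cell types. All 9 astrocyte markers were above 3 counts in some library of each group, and their summed level was 18050 to 23860 CPM in astrocytes, 27310 to 36570 CPM in stem cells and 8719 to 11320 CPM in progenitors. The 7 progenitor and neuroblast markers summed to 801.4 to 1543 CPM in progenitors and to 9.95 to 39.6 CPM in stem cells. Markers of other cells were present as well. The 5 mature neuron markers summed to 620.4 to 5252 CPM in astrocytes, the highest value being in astrocyte library a, against 147.3 to 224.4 CPM in progenitors and 237.6 to 456.2 CPM in stem cells. Most of the astrocyte sum was Camk2a, at 4052, 1473, 1498 and 459.9 CPM in libraries a to d. Among the 5, Rbfox3 alone had a lower mean in astrocytes (22.8 CPM) than in progenitors (29.7 CPM). The 5 markers of oligodendrocyte precursors reached 1732 to 2715 CPM in progenitors, against 42.9 to 320.3 CPM in astrocytes and 62.6 to 138.4 CPM in stem cells. The 5 markers of myelinating oligodendrocytes reached 213.8 to 2901 CPM in astrocytes, with the highest value again in library a. The 4 mural cell markers summed to 1138 and 583 CPM in progenitors a and c, against 38.2 and 130.1 CPM in progenitors b and d, 20.6 to 190.3 CPM in astrocytes and 51.2 to 96.2 CPM in stem cells. The 5 proliferation markers reached 189.6, 474.5, 75.5 and 35.4 CPM in progenitors a to d, at most 40.7 CPM in astrocytes and at most 85.1 CPM in stem cells. The part of these other cells and of dividing cells in the differences between cell types was not tested.

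Of the 66 genes, 63 had at least 10 counts in every progenitor library, 58 in every stem cell library and 31 in every astrocyte library. Between 1 and 2 genes per progenitor library had 3 counts or fewer, between 3 and 5 per stem cell library, and between 8 and 19 per astrocyte library. In astrocytes, 18 genes were at 3 counts or fewer in one library and at 100 counts or more in another, compared with 3 genes in stem cells and 0 in progenitors. An example is Eif4a3, the helicase paralog of the exon junction complex, which stood at 0.639, 99.0, 0.198 and 103.3 CPM in astrocytes a to d and between 186.3 and 220.7 CPM in the progenitors. This pattern was not particular to translation factors, and the study describes the cDNA of the astrocytes as suboptimal in quality. Among 16119 genes with at least 10 counts in 4 of the 12 libraries, 55.6% had an astrocyte library with 3 counts or fewer, against 40.6% of the 64 members among them. The median coefficient of variation of the members was 87.2% in astrocytes, 22.8% in progenitors and 39.2% in stem cells, compared with 111%, 38.6% and 59.7% for all these genes.

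**Figure D1:**
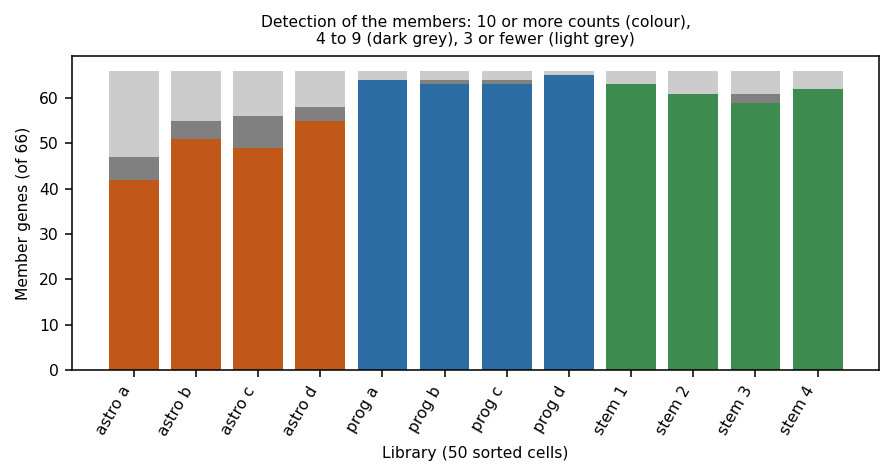
Number of the 66 translation factor genes in each library (50 sorted cells, x axis) with 10 or more counts (coloured), 4 to 9 counts (dark grey) and 3 or fewer counts (light grey). Astrocyte libraries had 42 to 55 genes at 10 or more counts, whereas progenitor libraries had 63 to 65 and stem cell libraries 59 to 63.

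The summed level of the 66 genes was 8104, 8402, 7300 and 8288 CPM in progenitors a to d and 5998, 5796, 6131 and 5069 CPM in stem cells 1 to 4. The astrocyte libraries held 11710, 6882, 6331 and 5528 CPM. Every progenitor library was above every stem cell library, while the astrocytes spanned both. In astrocyte library a, which stood apart, 37.3% of the sum came from Eef1a1, against 13.3% to 23.2% in the other 11 libraries. Without Eef1a1, the progenitor libraries averaged 6276 ± 273 CPM (SD, n = 4). The mean of the stem cell libraries was then 4937 ± 430 CPM (SD, n = 4), and that of the astrocyte libraries 5712 ± 1133 CPM (SD, n = 4).

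**Figure D2:**
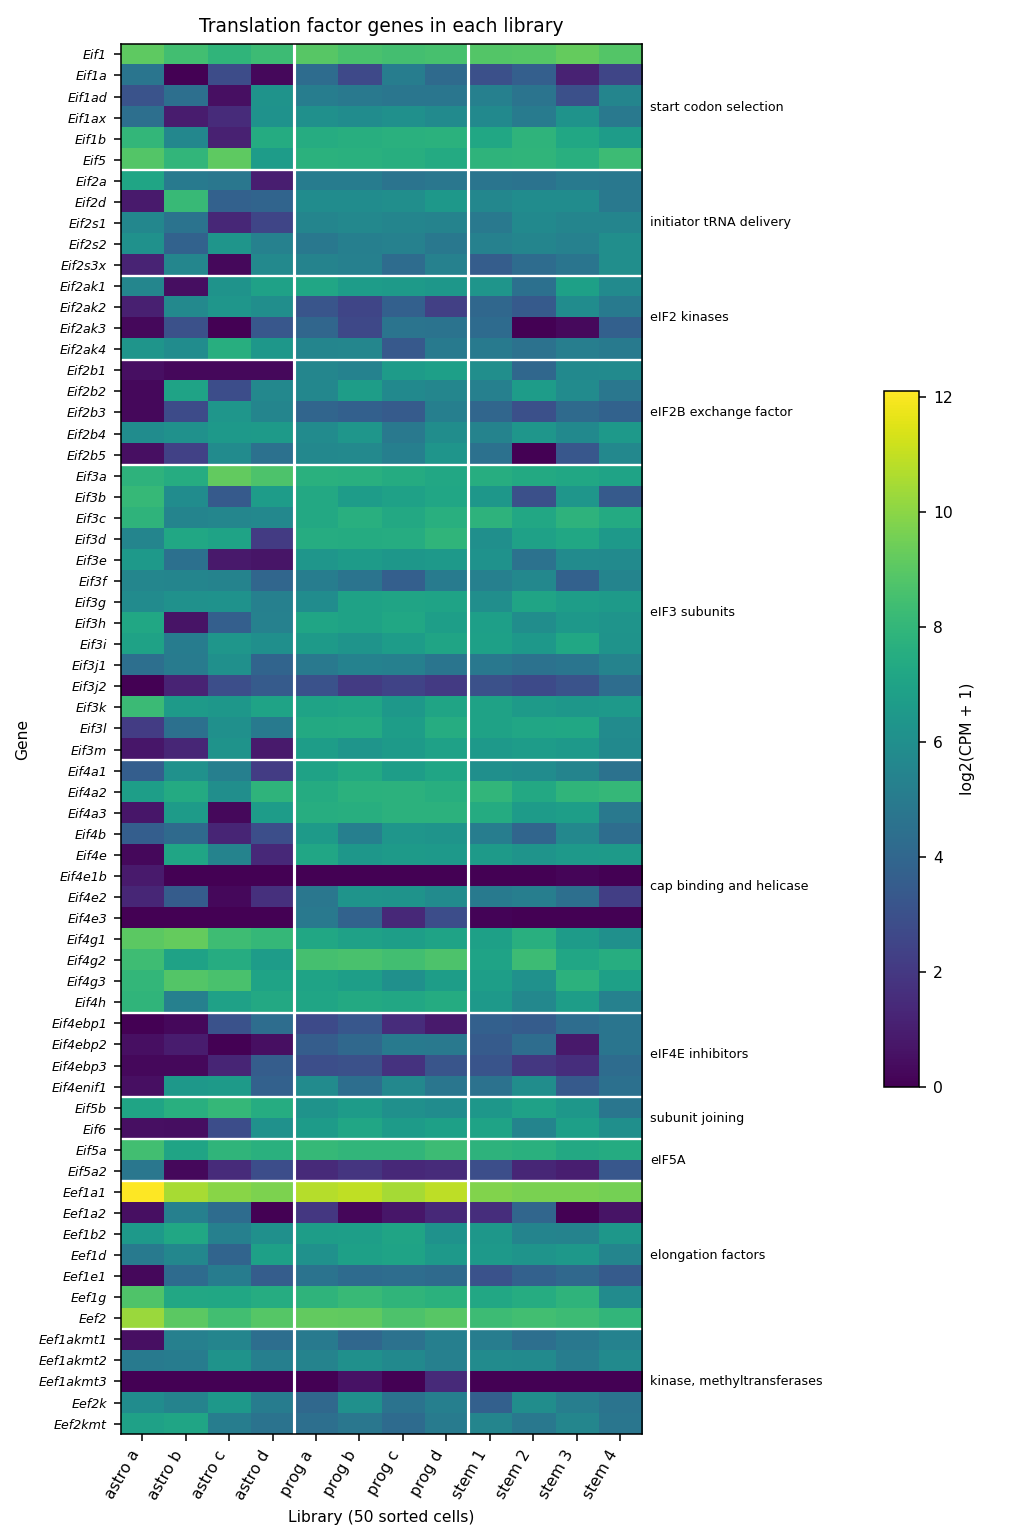
Level of each of the 66 genes (rows, grouped by role) in each of the 12 libraries (columns), as log2(CPM + 1). Eef1a1 was the brightest gene in every library, and dark cells, standing for levels near 0, were mostly in the 4 astrocyte columns.

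Levels of different genes were compared per kilobase of the longest coding transcript. On that scale Eef1a1, encoding the eEF1A that carries aminoacyl-tRNA, ranked first, with 1059 CPM per kb in astrocytes, 973.8 CPM per kb in progenitors and 452.4 CPM per kb in stem cells. Over the 12 libraries it was followed by Eif1 (start codon scanning), Eif5a (the hypusinated factor that helps ribosomes over difficult peptide bonds), Eef2, Eif1b, Eif3k and Eef1g. The lowest were Eif4e1b, known from oocytes, and the methyltransferase gene Eef1akmt3. Neither reached the minimum count for any test. The 12 genes of the core eIF3 subunits, whose proteins form a single complex, were far from equal on that scale. Eif3k was the highest and Eif3f the lowest in each cell type, 11.4-fold apart in astrocytes, 13.2-fold in progenitors and 7.73-fold in stem cells, per kilobase. This ranking depends on the length used. The longest coding transcripts of Eif3k and Eif3f have 909 and 2514 bases, whereas their exonic bases number 2698 and 2891. In CPM without length scaling, the highest means were Eif3a in astrocytes (351.6), Eif3d in progenitors (193.1) and Eif3c in stem cells (192.8).

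The first comparison, of progenitors with stem cells, had the least scatter, with a median standard error of 0.35 over the members on the log2 scale. With edgeR's quasi-likelihood test and Benjamini-Hochberg adjustment over 15427 genes, 4 of 64 members tested passed the threshold of 0.05, all higher in progenitors. These were Eef1a1, Eef2, Eif4a1 and Eif4e3. They make up 6.25% of the members, and over all genes tested 8.6% passed, 4.95% being higher in progenitors and 3.66% lower. The share of called members was thus no higher than the background. The count was 2 (3.12%) when progenitor b or progenitor d was left out, where 6.37% and 5.17% of all genes passed. It was between 3 and 5 when any other library was left out, where 6.03% to 8.37% of all genes passed. Unadjusted p-values were under 0.05 for 13 members. The fold changes of the 64 members had a median of 0.24 on the log2 scale, with 44 above 0 and 20 below, whereas all genes tested had a median of 0.04. The groups did not overlap for 12 members that were higher in progenitors (18.8%, against 11.8% of all genes) and for 2 that were lower (3.12%, against 7.5%).

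3 of the called genes are ordinary, abundant factors of initiation and elongation. The stretch around their annotated transcription start is shown because they rose together in progenitors. The sequences are from RefSeq on GRCm38.p6 and run from 40 bases before the start to 30 bases from it, on the gene's own strand. Eif1, the member with the second highest level per kilobase over the 12 libraries, did not pass the test and is shown for contrast. Capitals mark a TATAAAA or TATATAA motif, both of which were searched on either strand.
Eef1a1, chr9:78481695-78481764, minus strand: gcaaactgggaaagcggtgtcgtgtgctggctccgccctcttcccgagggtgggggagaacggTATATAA
Eef2, chr10:81176591-81176660, plus strand: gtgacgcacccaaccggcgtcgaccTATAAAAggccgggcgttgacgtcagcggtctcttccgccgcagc
Eif4a1, chr11:69672394-69672463, minus strand: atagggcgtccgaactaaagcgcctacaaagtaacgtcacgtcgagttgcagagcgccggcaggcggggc
Eif1, chr11:100319909-100319978, plus strand: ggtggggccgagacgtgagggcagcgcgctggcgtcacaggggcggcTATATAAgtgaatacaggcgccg
Promoters of 50 of the 66 genes were matched, each from 250 bases before to 50 bases after the start. These 3 genes, Eef1a1, Eef2 and Eif1, were the ones that held either motif. In all 32851 promoters of the table, TATAAAA was found in 5.48%, TATATAA in 3.24% and either in 7.98%. Counting the annotated start as base 1, the motif began at 24 in Eef1a1 and at 8 in Eif1. In Eef2 it began at -15, upstream of the annotated start. Where transcription begins in these cells was not measured. A motif match is a description of these letters and does not show a site in use.

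Eef1a1 (chr9:78478449-78489151 on GRCm38, minus strand) was measured at 1735, 1952, 1429 and 1871 CPM in progenitors a to d and at 882.3, 804.8, 813.7 and 745.5 CPM in stem cells 1 to 4. The stem cells lay close together, and the lowest progenitor was well above the highest of them. The difference was 1.07 on the log2 scale (SE 0.14, 2.10-fold, adjusted p = 0.00186 by edgeR's quasi-likelihood test). It passed in each of the 8 fits that left out a library, and missed the threshold in the fit of all 12 libraries together, where adjusted p was 0.292. Of its 7 near-identical copies, mostly pseudogenes, 5 were in the count table and held 1.5% as many counts as Eef1a1 itself.

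Eef2 (chr10:81176631-81182498), which encodes the translocase of elongation, was at 582.8, 562.3, 413.3 and 498.6 CPM in progenitors and at 312.5, 347.4, 313.6 and 246.8 CPM in stem cells. The groups were separate, though closer than for Eef1a1. The log2 difference was 0.72 (SE 0.17, 1.64-fold, adjusted p = 0.0281, edgeR). This call was fragile, since it was kept in 2 of the 8 fits that left out a library, those without progenitor c and without stem cell 2, and adjusted p was between 0.0335 and 0.0801 over the 8 fits. With all 12 libraries in one fit it was 0.49.

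Eif4a1 (chr11:69666936-69672423, minus strand), the DEAD-box helicase of the cap complex, was at 126.0, 161.6, 106.4 and 135.5 CPM in progenitors and at 63.6, 58.0, 43.2 and 22.5 CPM in stem cells. No stem cell library reached the lowest progenitor. The log2 difference was 1.46 (SE 0.32, 2.76-fold, adjusted p = 0.0193, edgeR), and adjusted p rose to 0.0606 without progenitor b and to 0.0561 without progenitor d. With all 12 libraries in one fit it was 0.533. A processed copy, Eif4a-ps4, is 99.9% identical. Of 3 near copies, 2 were in the count table and together held 10.4% as many counts as Eif4a1. The counting may thus have split some Eif4a1 reads.

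Eif4e3 (chr6:99625135-99666771, minus strand), a cap-binding paralog of eIF4E, was counted almost only in progenitors. It had 411, 155, 18 and 74 counts in progenitors a to d, 1, 0, 0 and 0 counts in stem cells 1 to 4, and 0 counts in the 4 astrocyte libraries. Its level in progenitors was 28.2, 12.9, 1.66 and 6.36 CPM, so it was a gene of low level and it varied widely between libraries. With 3 counts allowed in each stem cell library, it was at least 30.1-fold higher in progenitors (adjusted p = 0.008, edgeR). That floor covers counting error and not transcripts lost before sequencing. The gene passed in all 8 fits that left out a library. It met the count filter through the progenitor libraries alone, so a call could only be higher in progenitors. The summed markers of oligodendrocyte precursors were 1995, 1732, 2715 and 2558 CPM in the same progenitor libraries and at most 138.4 CPM in stem cells. The part of such cells in the Eif4e3 counts was not tested. Of its exonic bases, 14.8% overlap Gm20696 on the same strand.

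**Figure D3:**
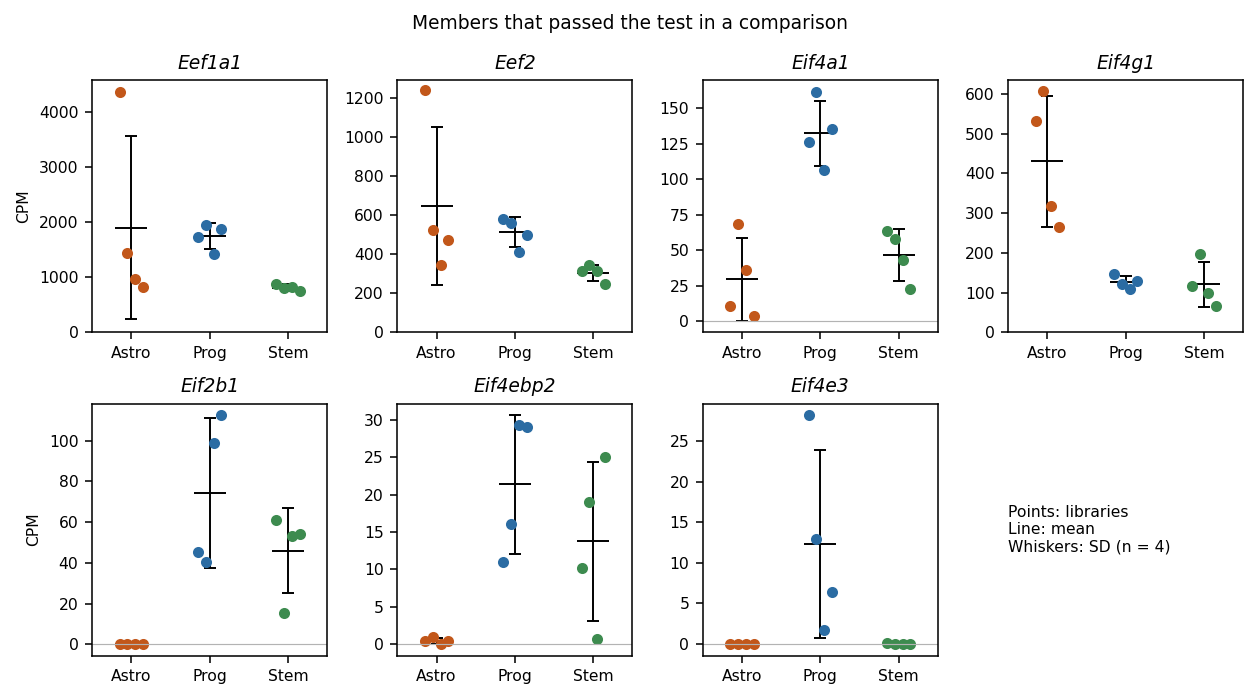
CPM of the 7 genes that passed the test in some comparison, by cell type. Points are libraries, horizontal lines are means and whiskers are SD (n = 4). Eef1a1, Eef2 and Eif4a1 separate progenitors from stem cells, whereas Eif2b1 and Eif4ebp2 are near 0 in the 4 astrocyte libraries and Eif4e3 in the 8 libraries outside the progenitors.

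By role, the summed level was higher in every progenitor library than in any stem cell library for 4 of the 11 roles, the cap-binding and helicase genes, the elongation factors, the eIF3 subunits and eIF5A. Called genes were found in the first 2 of these. Among the cap-binding and helicase genes, 9 of 11 genes tested had a fold change above 0, with a median of 0.96 on the log2 scale. The test was passed by 2 (Eif4a1 and Eif4e3), against 8.6% of all genes tested. The 12 genes summed to 1563, 1562, 1464 and 1613 CPM in progenitors and to 1090, 1069, 1122 and 834.3 CPM in stem cells, without overlap. Eif4g2, whose product supports cap-independent initiation, was at 372.4, 391.6, 339.6 and 424.5 CPM in progenitors and at 127.2, 314.6, 140.8 and 181.6 CPM in stem cells. These groups did not overlap, but stem cell 2 came near the progenitors and the log2 difference of 0.96 (SE 0.28) missed the threshold (adjusted p = 0.0611, edgeR). Without stem cell 2 it passed, with adjusted p at 0.00646. Eif4h, which stimulates the helicase, had a difference of 1.11 (SE 0.32, adjusted p = 0.0604, edgeR), and without stem cell 3 it passed.

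Of the 7 elongation factor genes, 6 had fold changes above 0 in progenitors over stem cells, with a median of 0.70. The test was passed by 2 (Eef1a1 and Eef2), against 8.6% of all genes tested. Their summed level was 2750, 3040, 2366 and 2757 CPM in progenitors and 1529, 1479, 1502 and 1186 CPM in stem cells, so the groups were separate. The exchange factor subunits Eef1b2, Eef1d and Eef1g were among those above 0 and did not pass. There are 9 members that belong to the mRNAs known to begin with a 5′ terminal oligopyrimidine tract, the feature through which mTORC1 controls the translation of ribosomal proteins and elongation factors. Of these 9, 8 were above 0 with a median of 0.70 and 2 passed, compared with 36 of 55 and a median of 0.17 for the members outside that list, of which 2 passed, and with 51.8% of all genes tested above 0. The difference between the 2 sets was not tested. In astrocytes over progenitors, 3 of the 9 were above 0 (median -0.29), and in astrocytes over stem cells 5 of the 9 were (median 0.05), with none called.

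The eIF3 subunit genes summed to 1534, 1539, 1433 and 1677 CPM in progenitors and to 1334, 1154, 1356 and 1002 CPM in stem cells, without overlap. None of the 14 genes passed, with 10 above 0 and a median of 0.21. Eif3b, Eif3d and Eif3e were higher in progenitors without overlap, as were 11.8% of all genes tested. Eif3d had a log2 difference of 0.85 (SE 0.27, adjusted p = 0.0889, edgeR) and shares 43.3% of its exonic bases with Gm17638 on the opposite strand, whose reads cannot be told apart in unstranded counts. The 2 eIF5A genes summed to 249.7 to 309.9 CPM in progenitors and 158.0 to 233.4 CPM in stem cells, almost all of it Eif5a, and neither passed. In the other roles the summed levels overlapped. None of the 6 genes of start codon selection, the 5 of initiator tRNA delivery, the 5 of eIF2B, the 4 eIF2 kinases or the 4 eIF4E inhibitors passed. Eif2ak2, encoding the double-stranded RNA sensor PKR, had the lowest fold change, with 8.09, 4.76, 12.01 and 3.87 CPM in progenitors and 15.6, 9.64, 58.9 and 30.6 CPM in stem cells. The ranges overlapped, and the difference of -2.04 (SE 0.70) had an adjusted p of 0.115 (edgeR), although DESeq2 called it. Eif4ebp1, the best known mTORC1-regulated inhibitor of eIF4E, was at 5.62, 8.69, 1.94 and 0.860 CPM in progenitors and at 12.2, 10.6, 18.8 and 24.7 CPM in stem cells. It was lower in every progenitor library, with a difference of -1.99 (SE 0.82, adjusted p = 0.19, edgeR) that did not pass. Eif1 was at 492.3, 397.1, 353.6 and 381.0 CPM in progenitors and at 460.1, 473.9, 603.3 and 464.0 CPM in stem cells. These ranges overlapped, and its difference was -0.34 (SE 0.17, adjusted p = 0.291, edgeR).

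**Figure D4:**
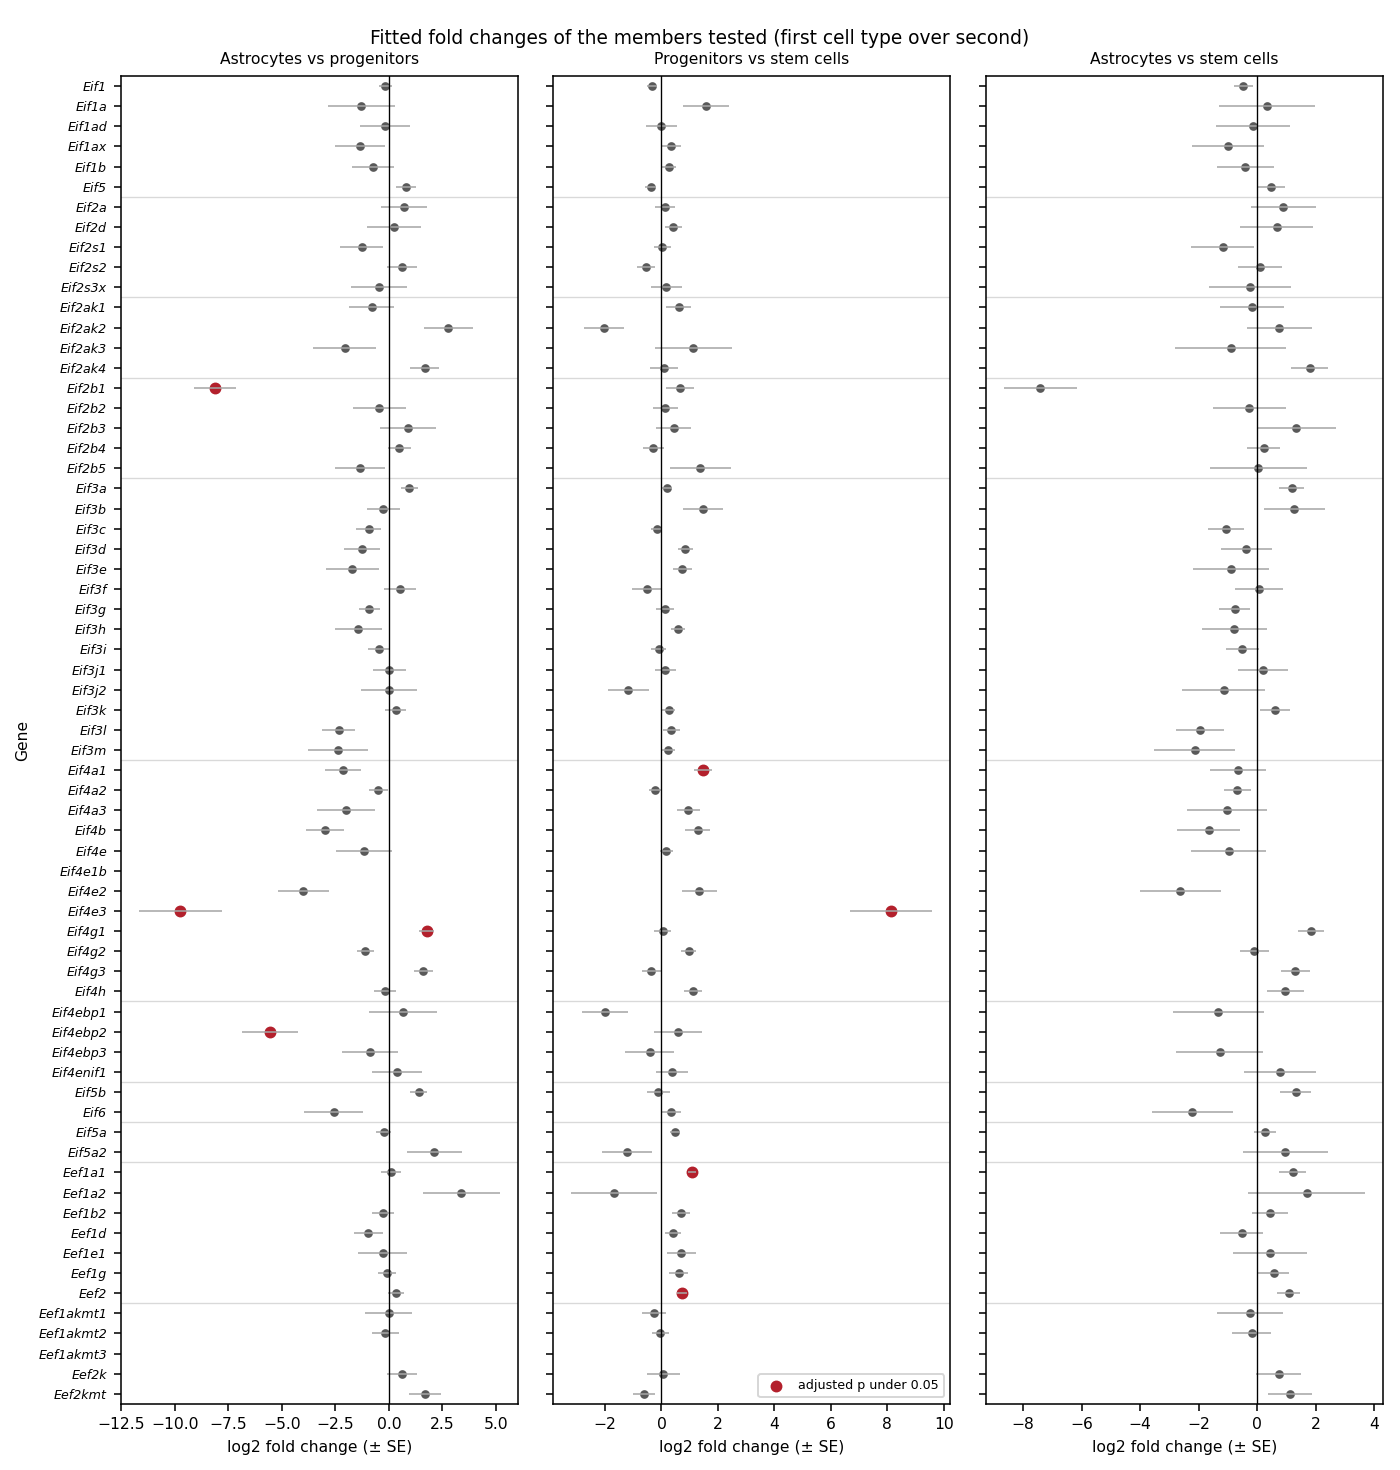
Fitted log2 fold change (x axis, bars are SE) of each member tested, in the order of roles used in the heat map, for the 3 pairs of cell types. Red points passed the adjusted threshold of 0.05. The bars are short for progenitors over stem cells, with a median SE of 0.35, and longer in both panels with astrocytes, with medians of 0.93 and 1.02.

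The second comparison set astrocytes against progenitors. Over 14806 genes, 8.63% passed edgeR's test, 2.45% being higher in astrocytes and 6.18% lower. Among the members, 4 of 64 tested passed (6.25%). Eif4g1 was higher in astrocytes, and Eif2b1, Eif4ebp2 and Eif4e3 were lower. Eif2b1, Eif4ebp2 and Eif4e3 were under 10 counts in every astrocyte library and met the count filter through the progenitors alone. For them a call could only be lower in astrocytes, so their shared direction is not a separate result. The count was 10 (15.6%) without astrocyte a, the library in which 19 members had 3 counts or fewer. The share of all genes called also rose in that fit, to 11.1%. The count of members was 2 (3.12%) without progenitor b or d, where 6.69% and 5.14% of all genes were called. It was 1 (1.56%) without progenitor c, where 4.65% of all genes were called. An unadjusted p under 0.05 was found for 15 members. The median of the 64 log2 fold changes was -0.27, with 24 above 0 and 40 below, against a median of 0.03 over all genes. Members that did not overlap between the groups numbered 4 higher in astrocytes (6.25%, against 5.84% of all genes) and 12 lower (18.8%, against 15.2%).

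Eif4g1 (chr16:20668313-20692884), the scaffold that joins the cap-binding protein to the helicase and to eIF3, was at 531.6, 607.7, 318.2 and 266.1 CPM in astrocytes a to d. It was at 146.6, 121.9, 109.5 and 128.6 CPM in progenitors and at 117.5, 197.8, 98.9 and 66.7 CPM in stem cells. Every astrocyte library was above every other library, while progenitors and stem cells overlapped. The log2 difference from progenitors was 1.76 (SE 0.35, 3.39-fold, adjusted p = 0.016, edgeR). Adjusted p was 0.0507 without progenitor c and was under the threshold without any other library. The mature neuron markers, whose sum was also higher in astrocyte libraries, summed to 5252, 1792, 1848 and 620.4 CPM in astrocytes a to d. Camk2a made up most of this sum, and Rbfox3 had a lower mean in astrocytes than in progenitors. The part of neurons in the Eif4g1 difference was not tested. Eif4g3, its close paralog, was at 256.9, 469.1, 398.6 and 129.9 CPM in astrocytes and at 126.9, 110.2, 66.7 and 106.9 CPM in progenitors, and missed the threshold (log2 difference 1.62, SE 0.45, adjusted p = 0.0557, edgeR). It was called without astrocyte a or d, with DESeq2 or its size factors, and with all 12 libraries in one fit.

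Eif2b1 (chr5:124570213-124579131, minus strand), the alpha subunit of the exchange factor that recharges eIF2, had 2, 1, 1 and 1 counts in the 4 astrocyte libraries. It had 658, 487, 1071 and 1308 counts in progenitors and 597, 117, 426 and 292 counts in stem cells. It was the member with at most 3 counts in every library of one cell type while being abundant in both other cell types. The share of all genes with this pattern was not computed. Among 16119 genes, 55.6% had an astrocyte library with 3 counts or fewer, and the study describes the astrocyte cDNA as suboptimal in quality. With 3 counts allowed in each astrocyte library, Eif2b1 was at least 124-fold lower than in progenitors (adjusted p = 0.00248, edgeR). This floor covers counting error and not transcripts lost before sequencing, so the true fold may be smaller. The gene passed in each of the 8 fits that left out a library. The other subunits did not share this. Eif2b4 was at 57.3, 67.4, 92.4 and 93.9 CPM in astrocytes and at 56.5, 79.5, 28.9 and 59.0 CPM in progenitors, which overlapped. Eif2b2, Eif2b3 and Eif2b5 were at 0.213, 0.213 and 0.426 CPM in astrocyte a and reached 128.6, 81.4 and 55.9 CPM in other astrocyte libraries.

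Eif4ebp2 (chr10:61428491-61452661, minus strand), the eIF4E-binding protein known as the main one of the brain, had 2, 5, 0 and 2 counts in astrocytes. It had 161, 192, 317 and 338 counts in progenitors and 99, 146, 6 and 135 counts in stem cells. It was close to absent in the astrocyte libraries and in stem cell 3. The log2 difference between astrocytes and progenitors was -5.56 (SE 1.31, adjusted p = 0.0244, edgeR), and the call was lost in the 4 fits that left out a progenitor library, where adjusted p reached 0.0821, and without a count filter, where it was 0.082. Eif4e3, described above, was at least 20.5-fold lower in astrocytes on the same counting floor (adjusted p = 0.0228, edgeR). This call was lost without progenitor b, c or d and, with adjusted p at 0.062, without a count filter.

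By role, the cap-binding and helicase genes had the most negative median in astrocytes against progenitors among roles of more than 2 genes, at -1.17. Of the 11 tested, 9 were below 0, with 1 called higher and 1 called lower. Eif4a1 was at 11.1, 68.3, 36.0 and 3.47 CPM in astrocytes, below every progenitor library, and did not pass (log2 difference -2.14, SE 0.82, adjusted p = 0.173, edgeR). Eif4b and Eif4e2 were likewise lower in every astrocyte library, with differences of -2.99 (SE 0.88) and -3.99 (SE 1.18) and adjusted p-values of 0.0679 and 0.0686 (edgeR), so neither passed. Both were called without astrocyte b, by DESeq2 and with all 12 libraries in one fit. Without astrocyte b the difference of Eif4e2 was -5.47 (adjusted p = 0.0303, edgeR). Of the eIF3 subunits, none of 14 passed. Eif3d, Eif3l and Eif3m were lower in astrocytes without overlap, as were 15.2% of all genes tested. None of the 7 elongation factors passed. Eef1a1 was at 4370, 1438, 968.3 and 824.3 CPM in astrocytes, so library a was above and libraries c and d were below all the progenitors. Its difference was 0.10 (SE 0.46), and it turned to -0.68 without library a (adjusted p = 0.088, edgeR). Eef1a2, the form of eEF1A that takes over in neurons and muscle, had the highest fold change of all members, 3.37, yet its SE was 1.80 and its adjusted p 0.368 (edgeR). It was at 0.426, 37.1, 18.6 and 0 CPM in astrocytes a to d, thus split between libraries b and c and the others. In library a the neuron markers were highest, and 19 members had 3 counts or fewer. The part of neurons in the Eef1a2 counts was not tested.

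Over the astrocyte comparisons, the sign of the fold change went with the length of the longest coding transcript, a split examined after the values were seen. Of 11 members longer than 5000 bases, 8 were above 0 in astrocytes over progenitors with a median of 0.96, compared with 16 of 53 other members and a median of -0.44. All protein-coding genes tested showed a like direction, with 62.0% of the longer ones above 0 (median 0.46) and 45.6% of the others (median -0.15). In astrocytes over stem cells, 8 of 10 longer members and 22 of 52 others were above 0, with medians of 1.07 and -0.25, against 70.7% and 49.3% of all protein-coding genes tested. In progenitors over stem cells, 8 of 11 longer members and 36 of 53 others were above 0, with medians of 0.09 and 0.34, against 53.2% and 54.2% of all. Across genes, Spearman's rho of length and fold change was 0.236 over 64 members and 0.138 over 11944 genes for astrocytes against progenitors. It was 0.37 over 62 members and 0.213 over 10576 genes for astrocytes against stem cells, and 0.011 and 0.042 for progenitors against stem cells. These are weak relations between genes of the same libraries, and genes are not independent replicates. The part of transcript length in the call of Eif4g1, whose longest coding transcript has 5638 bases, was not tested.

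The third comparison, astrocytes against stem cells, gave no called member. Of 12831 genes, 6 (0.0468%) passed edgeR's test, and 0 of 62 members tested did, while 9 members had an unadjusted p under 0.05. DESeq2 called 3 members (Eif2ak4 and Eif4g1 higher, Eif2b1 lower), and edgeR with all 12 libraries in one fit called 2 (Eif4g1 and Eif2b1). The median standard error was 1.02, so that changes of moderate size could not be detected at this spread. The largest rise was that of Eif4g1 (log2 difference 1.84, SE 0.44, adjusted p = 0.103, edgeR), whose libraries did not overlap. Eif2b1 showed the largest fall, at least 76.9-fold lower in astrocytes on the same counting floor, with an adjusted p of 0.0869 (edgeR). Members that did not overlap were 3 higher in astrocytes (4.84%, against 3.69% of all genes), namely Eif2ak4, Eif4g1 and Eif5b, and 1 lower (1.61%, against 6.28%). This comparison shares its astrocyte libraries with the second, so the values are not independent of those above.

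Several factors exist as paralog pairs, and the ratio within a pair compares genes of the same library. The log2 ratio, a difference of log2(CPM per kb + 1), was taken in each library for 8 pairs. The 1 that is added limits the size of the ratio where a gene is near 0, as for Eif5a2. Ratios were compared between cell types with two-sided exact permutation tests, 24 in all. With 4 libraries against 4, the smallest p such a test can give is 0.029, and 5 of the 24 reached it. After Benjamini-Hochberg adjustment over the 24 tests these 5 had an adjusted p of 0.137 (exact permutation), so none passed.

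The ratio of Eif4a2 to Eif4a1, 2 helicases of the cap complex, was -0.14, -0.21, 0.44 and -0.10 in progenitors and 1.34, 0.81, 1.84 and 2.84 in stem cells. Stem cells thus held more Eif4a2 than Eif4a1 per kilobase in every library, while progenitors held about equal amounts (difference -1.71, SE 0.46, exact permutation p = 0.0286). Eif4a2 alone was at 174.8 to 220.7 CPM in progenitors and 157.2 to 262.3 CPM in stem cells, with overlap. The ratio of Eif4g2 to Eif4g1 was -1.22, -2.71, -1.32 and -1.83 in astrocytes, 0.82, 1.14, 1.09 and 1.18 in progenitors and -0.37, 0.16, 0.01 and 0.89 in stem cells. Astrocytes lay below both other groups in every library, by 2.83 on the log2 scale from progenitors (SE 0.35) and by 1.94 from stem cells (SE 0.43, exact permutation p = 0.0286 for each). The ratio of Eif4ebp2 to Eif4ebp1 was 2.31 higher in progenitors than in stem cells (SE 0.87, exact permutation p = 0.0286), and that of Eif5a2 to Eif5a was lower by 0.86 (SE 0.31, exact permutation p = 0.0286). With 0.1 added in place of 1, the libraries overlapped for Eif5a2 to Eif5a, and its adjusted p was 0.41 (exact permutation). Eif5a2 alone was at 1.66 to 2.59 CPM in progenitors and 1.00 to 8.73 CPM in stem cells, with overlap. Eif5a exceeded Eif5a2 in every library, at 131.0 to 348.5 CPM against 0.183 to 26.6 CPM. For Eef1a2 to Eef1a1, Eif1b to Eif1, Eif1ax to Eif1a and Eif4e2 to Eif4e, the libraries of each pair of cell types overlapped.

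**Figure D5:**
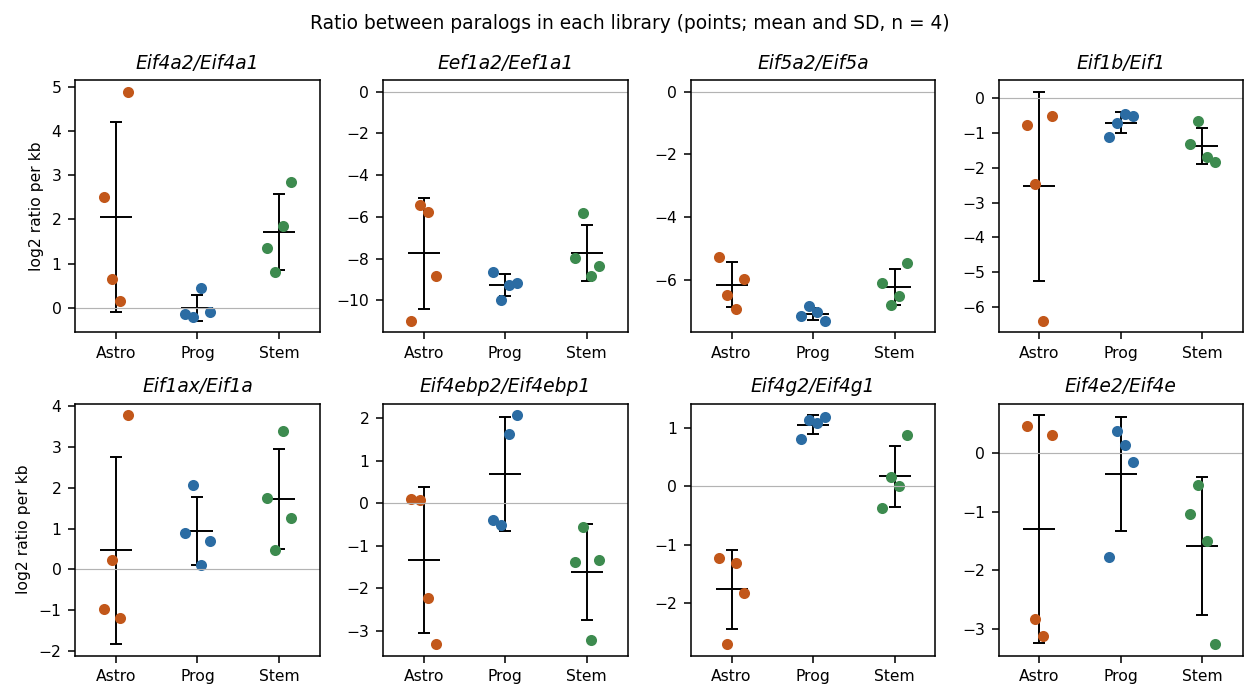
The log2 ratio between the paralogs of 8 pairs (per kilobase, y axis) in each library, by cell type. Points are libraries, horizontal lines are means and whiskers are SD (n = 4). Eif4g2 to Eif4g1 lies between -2.71 and -1.22 in astrocytes and between 0.82 and 1.18 in progenitors.

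The genes that act around these factors were examined as lists. Of 16 genes of mTORC1 signalling, 1 passed in progenitors over stem cells, Rps6, a ribosomal protein that is phosphorylated downstream of mTORC1 (log2 difference 1.13, SE 0.25, adjusted p = 0.0196, edgeR). It was at 231.5, 212.8, 164.4 and 199.1 CPM in progenitors and at 105.6, 98.5, 104.7 and 52.2 CPM in stem cells, without overlap. The median of the 16 was 0.07. Over all genes tested, 8.6% passed in progenitors over stem cells. None of the 16 passed in the other comparisons. In no comparison did any gene of the integrated stress response pass, of 6 tested in both comparisons with progenitors, although their median was 1.07 in progenitors over stem cells and -1.66 in astrocytes over progenitors. Over all genes, 8.63% passed in astrocytes against progenitors. Of 9 genes for the synthesis of hypusine on eIF5A and of diphthamide on eEF2, 1 passed in that comparison and none elsewhere. This was Dph2, which was listed at 0 counts in the 4 astrocyte libraries and at 42.4, 17.0, 16.4 and 21.4 CPM in progenitors (adjusted p = 0.016, edgeR). It met the count filter through the progenitor libraries alone, so a call could only be lower in astrocytes. It was at 10.9, 15.8, 66.2 and 0.186 CPM in stem cells, so stem cell 4 was also near 0. None of the 5 poly(A)-binding genes, 4 termination and recycling genes or 8 mitochondrial translation factor genes passed in any comparison.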

How the data were processed

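Sorted cells of 3 types were profiled by the authors as 12 RNA-seq libraries. The authors trimmed adapters, discarded reads from rRNA, mtDNA and PhiX, mapped the rest to GRCm38.p4 with HISAT2 2.0.6 and deposited raw counts per GENCODE M14 gene, made with featureCounts in unstranded mode. No molecular identifiers are named, so floors cover counting error only.

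Symbols, roles and lengths came from GENCODE M21 on GRCm38, and promoters from RefSeq. The members and lists were chosen with earlier results of these data known. Each pair of cell types was fitted on its own 8 libraries with the quasi-likelihood test of edgeR 4.0.16 under R 4.3.3 after TMM scaling, keeping genes that reached 10 counts in 4 or more libraries (3 or more where a library was left out), with a Benjamini-Hochberg threshold of 0.05, and the scripts were tested on simulated data. CPM were scaled by TMM over 12 libraries. Standard errors are the log2 fold change over the square root of F. Where no library of a group exceeded 3 counts, folds were computed with 3 counts per library. They are lower bounds for counting error and not for transcripts lost before sequencing. Near copies were found with BLAST+ 2.17.0 (95% identity over 50% of the length). Paralog ratios are differences of log2(CPM per kb + 1). Named genes were the called members, the extreme fold changes, the highest per kilobase in each role and the paralog pairs, 28 in all. Eif4g3, Eif4b, Eif4h, Eif5b, Eif2ak4, Eif2b3 to Eif2b5, Eif4e1b, Eef1akmt3, and the eIF3 and eEF1 subunits other than Eif3k were named after their values were seen. Alternatives were DESeq2 1.42.0, its size factors in edgeR, other count filters, all 12 libraries in one fit, thinned counts and each library left out.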

Additional observations from a re-analysis of the deposited data

Results flagged for a closer look

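In 84 groups of 4 libraries, formed by the 28 named genes in 3 cell types, 10 held a library whose gap to its nearest neighbour, on the log2(CPM + 1) scale, took up more of the range than Dixon's 95% critical value. Chance flags about 1 in 20 groups. Of the 10, 3 concerned stem cell 2, in which Eif2b1 was at 15.2 CPM (53.3 to 61.3 in the other stem cell libraries), Eif4a2 at 157 CPM (243 to 262) and Eif4e at 75.1 CPM (92.8 to 96.3). Stem cell 3 had Eef1akmt2 at 34.1 CPM (54.2 to 55.3) and Eif1 at 603 CPM (460 to 474). Stem cell 1 had Eif4e3 at 0.103 CPM, which is 1 count, against 0 in the others. Astrocyte a had Eif2ak2 at 1.06 CPM (51.0 to 79.8) and Eif2b1 at 0.426 CPM, which is 2 counts (0.183 to 0.204). Progenitor d had Eif2d at 85.9 CPM (57.4 to 61.0), and progenitor c had Eif3k at 86.7 CPM (129 to 136). The causes were not tested.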

How the results depend on the processing

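Of 1346 values of single genes and paralog ratios under the alternatives, 1308 kept their side of the threshold, 21 lost a call and 17 gained one. No called value changed direction. Among the 1308, 59 values that were not called changed direction, such as Eef1a1 and Eef2 in astrocytes against progenitors. The number of called members moved, and so did the share of all genes called. In astrocytes against progenitors it was 4 (6.25% of members tested, against 8.63% of all genes). It was 10 with DESeq2 (15.6% against 16.4%) and 2 without a count filter (3.03% against 1.9%). It was 2 with at least 10 counts in every library (6.45% against 4.9%) and 8 with all 12 libraries in one fit (12.5% against 8.59%). It ranged from 1 to 10 when each library was left out, while the share of all genes called ranged from 4.65% to 11.6%. In progenitors against stem cells it was 4 (6.25% against 8.6%), with 10 by DESeq2 (15.6% against 15.5%) and 1 with all 12 libraries (1.56% against 2.36%). The range was 2 to 5 when each library was left out, where 5.17% to 8.37% of all genes were called. In astrocytes against stem cells it was 0 (against 0.0468% of all genes), with 3 by DESeq2 (4.84% against 4.95%) and 2 with all 12 libraries (3.12% against 2.15%). It was 0 whenever a library was left out, where at most 0.0578% of all genes were called. Over all genes, the calls for astrocytes against progenitors numbered 1278, compared with 2431 by DESeq2, 529 without a filter and 287 with at least 10 counts in every library, where 191 were higher and 96 lower in astrocytes against 363 and 915. For progenitors against stem cells they numbered 1327, with 2394 by DESeq2 and 381 with all 12 libraries. For astrocytes against stem cells they numbered 6, with 635 by DESeq2, 346 with all 12 libraries, 16 without a filter and 12 with at least 10 counts in every library. Eif2b1, Eif4e3 and Eif4ebp2 have astrocyte libraries below 10 counts and were not tested under that filter. The cause of the other shifts was not tested. No paired analysis was possible because the astrocyte and progenitor columns carry no replicate numbers.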
